A study of Mus musculus with 22 samples.

Results

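Expression of the Stat transcription factors and of the cytokine-induced feedback inhibitors was followed across the RNA-seq libraries of a study of mouse memory CD4+ T cells. The genes were 5 Stat factors (Stat3, Stat4, Stat5a, Stat5b and Stat6) and 4 feedback inhibitors (Socs1, Socs2, Socs3 and Cish). They were taken by name and make up 9 of the 55291 gene names listed per library. In lung tissue the highest of the 9 was Socs2 in 3 libraries and Cish in 1. Stat5b, which transmits interleukin 2 signals, was higher in every usable circulating library than in any tissue library, as 6.11% of the 9096 genes tested were, and did not pass the test across all genes (limma adjusted p = 0.14).

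The study transferred effector Th2 cells, the helper cells behind type 2 cytokine responses, into mice sensitized with ovalbumin (OVA) and recovered their memory descendants. The donor cells carried a transgenic T cell receptor, from OT-II creERT2 or DO11.10 mice. Recipients were either BALB/c-nu/nu mice or mice of the strain C57BL/6 (Ly5.2). Nude mice lack a thymus and therefore nearly all conventional T cells of their own. One experiment traced CD45.1+ donor cells by tamoxifen-induced recombination until day 49, with lung cells sorted on CD69 and congenic markers and circulating ex-TRM cells taken from blood. In the other, lung TRM and Tcirc cells of DO11.10 origin were transferred again, into naive BALB/c-nu/nu mice, and examined on day 71 following an OVA rechallenge. Each of the 4 RNA groups has 2 libraries: ex-TRM and ex-Tcirc cells from tissue, and ex-TRM and ex-Tcirc cells from circulation. The names give the origin of the cells, TRM being resident memory cells of a tissue and Tcirc memory cells that circulate. All 8 RNA samples are labelled as CD4+ T cells of female mice aged 6 to 10 weeks, with lung as the tissue and Balb/c as the host strain. The labels do not say from which experiment or donor line an RNA library comes, nor whether replicates were separate animals, so all p-values rest on the variation among libraries alone, and that variation may be technical. Samples were prepared from 3000 to 50000 sorted cells.

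Cytokine receptors of this class carry Jak kinases, which phosphorylate Stat proteins. The phosphorylated Stat proteins pair up, enter the nucleus and bind DNA, mostly at palindromes of the form TTCNNNGAA, or with 4 bases between TTC and GAA in the case of Stat6. Socs proteins and Cish are induced by these signals and shut them down by blocking Jak kinases, by occupying receptor sites or by marking partners for degradation. In helper T cells Stat6 is known for interleukin 4 signals and Th2 fate, Stat4 for interleukin 12 signals and Th1 fate, Stat3 for interleukins 6, 10 and 21, and Stat5a and Stat5b for interleukins 2 and 7.

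The number of genes above 0 varied several-fold between libraries, which bears on every value from circulating cells. No read counts are used here, so the depth behind these numbers is unknown. Levels are in FPKM (fragments counted per kilobase of a gene, relative to all mapped fragments of its library), so levels of different genes are compared per length. Between 30488 and 37894 gene names were above 0 in the 4 tissue libraries, 29688 in circulating ex-TRM replicate 2, and 12785 and 7042 in circulating ex-Tcirc replicates 1 and 2. Circulating ex-TRM replicate 1 listed 917 names above 0 and none of the 9 genes, and it was treated as missing, which leaves 1 library in that group. All 9 genes were above 0 in the 4 tissue libraries and in circulating ex-TRM replicate 2. In circulating ex-Tcirc, 8 of them were above 0 in replicate 1 and only Stat5b in replicate 2. Of the 538 genes with a mean of 50 to 100 FPKM over the tissue libraries, the range that holds Stat3, Socs2 and Cish, 9.48% had a 0 in replicate 1 of circulating ex-Tcirc and 44.6% in replicate 2. Of the 2869 genes at 10 to 20 FPKM, the range of Stat5a and Socs3, 42.1% and 68.8% were listed at 0 in these libraries. A value of 0 there is therefore given as listed at 0 and not as absence of expression.

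**Figure D1:**
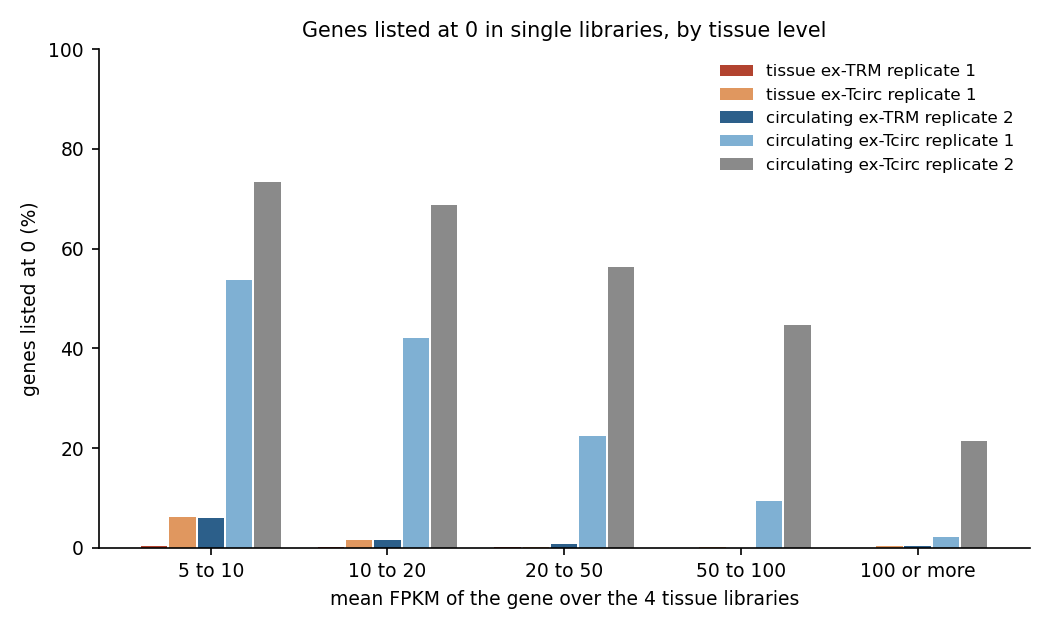
Percentage of genes listed at 0 FPKM (vertical axis) in 5 single libraries, for genes grouped by their mean FPKM over the 4 tissue libraries (horizontal axis). In the range of 50 to 100 FPKM the bars of circulating ex-Tcirc replicates 1 and 2 reach 9.48% and 44.6%, and those of tissue ex-TRM replicate 1, tissue ex-Tcirc replicate 1 and circulating ex-TRM replicate 2 are at most 0.186%.

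The cell type labels were checked against marker genes. The summed level of 7 T cell markers was 1222 to 1683 FPKM in tissue, 1703 in circulating ex-TRM replicate 2, and 1405 and 1286 in circulating ex-Tcirc, where 6 and 5 of the 7 were above 0. Cd8a was at most 1.32 FPKM. The 6 myeloid markers summed to 60.3 and 90.5 FPKM in tissue ex-TRM, to 139 and 38 FPKM in tissue ex-Tcirc, to 61 FPKM in the usable circulating ex-TRM library, and to 669 and 300 FPKM in circulating ex-Tcirc. In circulating ex-Tcirc, Lyz2 was at 646 and 255 FPKM and Csf1r at 10.9 and 45.2 FPKM, against at most 114 and 10.5 FPKM in the other libraries. Cd68 was at 12.4 and 0 FPKM there, against at most 6.89 FPKM elsewhere, and Itgam, Adgre1 and Marco were listed at 0 in both. B cell markers summed to 392 FPKM in tissue ex-Tcirc replicate 1 and to 19.9 to 62.4 FPKM in the other tissue libraries. In bulk samples, fewer cells of a type and less RNA per cell cannot be told apart.

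**Figure D2:**
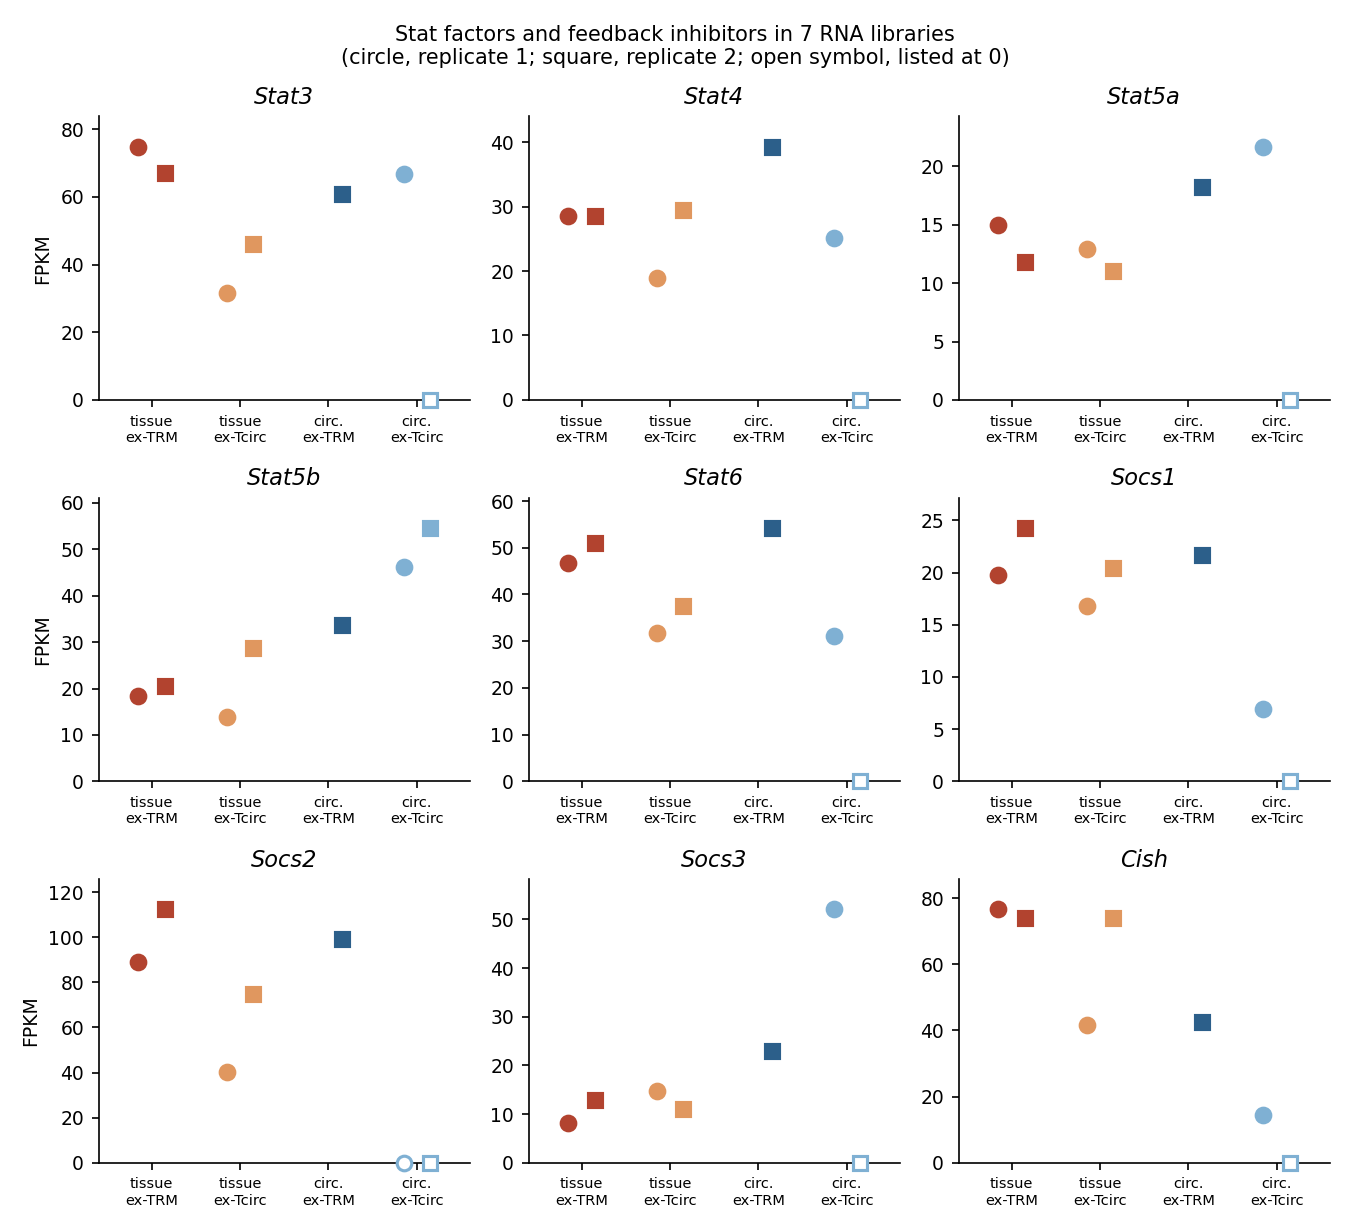
FPKM (vertical axes, each from 0) of the 9 genes in the 7 usable libraries, by group (horizontal axes). Stat3, Stat6 and Socs2 lie higher in both tissue ex-TRM libraries than in both tissue ex-Tcirc libraries, and Stat5b lies at 33.6 to 54.6 FPKM in the circulating libraries, above all tissue libraries.

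The first comparison set ex-TRM cells against ex-Tcirc cells within tissue. Stat3, Stat6 and Socs2 were higher in both tissue ex-TRM libraries than in either tissue ex-Tcirc library, by 1.83, 1.41 and 1.75 times in the group means. No gene of the 9 was lower without overlap. Such separation without overlap was common, since 33% of the 9096 genes tested were higher and 10.3% lower in this way, and 3 of 9 is close to that share. None of the 9 passed limma, a linear model fitted across all genes, which called 0% of the 9096 genes at an adjusted p under 0.05, with 1.08% at an unadjusted p under 0.05.

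Among the Stat factors, Stat3 was at 74.8 and 67 FPKM in tissue ex-TRM, against 31.7 and 46 FPKM in tissue ex-Tcirc. These groups did not overlap, and the lower ex-TRM library stood well above the higher ex-Tcirc library. Stat6 was at 46.8 and 51 FPKM in tissue ex-TRM, against 31.7 and 37.6 FPKM in tissue ex-Tcirc. The separation was narrower than for Stat3 but also complete. Stat4 was at 28.6 and 28.5 FPKM in tissue ex-TRM, against 18.9 and 29.4 FPKM in tissue ex-Tcirc, and both ex-TRM values lay inside the ex-Tcirc range. Stat5a was at 15 and 11.8 FPKM in tissue ex-TRM, against 12.9 and 11.1 FPKM in tissue ex-Tcirc. Stat5b was at 18.3 and 20.6 FPKM in tissue ex-TRM, against 13.9 and 28.7 FPKM in tissue ex-Tcirc. Both Stat5 genes thus overlapped between the groups, Stat5b with a wide gap between the ex-Tcirc libraries.

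Among the inhibitors, Socs2, which restrains growth hormone and Stat5 signals, was at 89.2 and 112 FPKM in tissue ex-TRM, against 40.1 and 75 FPKM in tissue ex-Tcirc. Cish, a classical Stat5 target that dampens interleukin 2 and T cell receptor signals, was at 76.5 and 73.9 FPKM in tissue ex-TRM, against 41.6 and 73.9 FPKM in tissue ex-Tcirc. Socs2 separated the groups, whereas the higher ex-Tcirc value of Cish equalled the lower ex-TRM value to 3 digits. Socs1, which blocks Jak kinases directly and restrains interferon and interleukin 4 signals, was at 19.8 and 24.3 FPKM in tissue ex-TRM, against 16.8 and 20.5 FPKM in tissue ex-Tcirc. Socs3, the main brake on Stat3 signals from the interleukin 6 receptor family, was at 8.24 and 12.8 FPKM in tissue ex-TRM, against 14.7 and 11.1 FPKM in tissue ex-Tcirc. Socs3 was the only inhibitor with a lower mean in ex-TRM cells, and its libraries overlapped.

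The size of these differences was estimated from the 4 tissue libraries alone, because in the fit of 7 libraries the error of 7 of the 9 genes includes the gap between circulating ex-Tcirc replicate 1 and a 0 in replicate 2. On the log2(FPKM + 1) scale the difference was 0.87 ± 0.24 for Stat3 (SE; 95% confidence interval 0.23 to 1.52; limma adjusted p = 0.70). For Stat6 it was 0.49 ± 0.18 (interval 0.0023 to 0.98; limma adjusted p = 0.70) and for Socs2 0.86 ± 0.35 (interval -0.086 to 1.80; limma adjusted p = 0.70). Stat3 and Stat6 had an unadjusted p under 0.05, as did 5.02% of the 9566 genes in that fit, and none of the 9566 passed after adjustment. The intervals of the other 7 genes, Socs2 among them, included 0. Estimates of the 6 not yet given ran from -0.29 for Socs3 to 0.43 for Cish, and the interval of Stat5b reached from -1.02 to 0.93. Tissue ex-Tcirc replicate 1 held the lowest tissue value of 7 of the 9 genes, and in that library the T cell markers summed to 1222 FPKM, against 1550 to 1683 FPKM in the other tissue libraries. Without it the difference was 0.61 for Stat3, 0.37 for Stat6, 0.41 for Socs2 and 0.025 for Cish, whose estimate with all libraries was 0.43. The part of the markers in these differences was not tested.

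**Figure D3:**
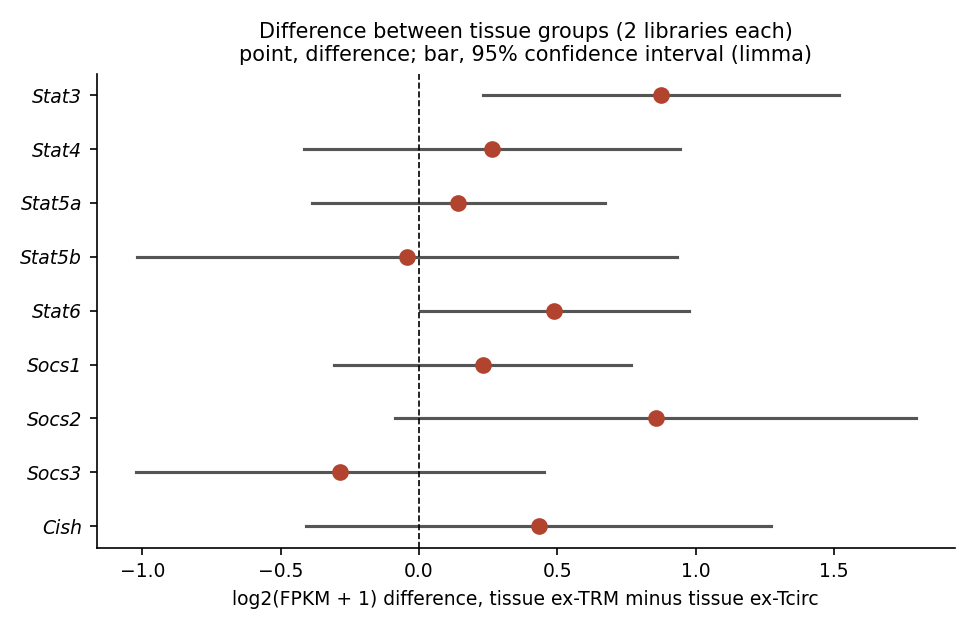
Difference in log2(FPKM + 1), tissue ex-TRM minus tissue ex-Tcirc (horizontal axis), for each gene, from limma over the 4 tissue libraries. Points are estimates and bars 95% confidence intervals, and the bars of Stat3 (0.23 to 1.52) and Stat6 (0.0023 to 0.98) lie above 0 before adjustment over all genes.

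The order of the levels was nearly the same in the tissue libraries. Socs2 and Cish were highest, followed by Stat3, Stat6 and Stat4 in each of the 4. Stat5b, Socs1, Socs3 and Stat5a took the lowest places, in an order that changed between libraries. In group means, Socs2 was at 101 ± 16.3 FPKM and Cish at 75.2 ± 1.86 FPKM in tissue ex-TRM, against 57.5 ± 24.6 FPKM for Socs2 and 57.7 ± 22.9 FPKM for Cish in tissue ex-Tcirc (SD, n = 2 each). In ex-Tcirc these means did not differ beyond their spread. In circulating ex-TRM replicate 2 Socs2 was again highest, whereas in circulating ex-Tcirc replicate 1 Stat3 was highest and Socs3 came next.

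Stat5a and Stat5b encode proteins of nearly the same sequence, and reads may have been split between them. The genes are neighbours on mouse chromosome 11 (GRCm38.p6), Stat5b at 100780731 to 100859004 and Stat5a at 100859351 to 100885169, with 346 bases between them, and Stat3 follows at 100886806 to 100939594. Of the other genes, Stat4 lies on chromosome 1, Cish on 9, Stat6 and Socs2 on 10, Socs3 on 11 and Socs1 on 16. The tissue ex-TRM libraries had Stat5b to Stat5a ratios of 1.22 and 1.75, and the tissue ex-Tcirc libraries had ratios of 1.08 and 2.59. The ratio was 1.845 in circulating ex-TRM replicate 2 and 2.13 in circulating ex-Tcirc replicate 1. Stat5b was the higher of the pair, per length, in each of these libraries. Both of these circulating ratios lay inside the range of the tissue ratios. No ratio could be formed in circulating ex-Tcirc replicate 2, where Stat5b was at 54.6 FPKM and Stat5a was listed at 0.

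The next comparison asked how cells in tissue differ from cells in circulation, averaged over both origins. Stat5b was at 18.3 and 20.6 FPKM in tissue ex-TRM and 13.9 and 28.7 FPKM in tissue ex-Tcirc, against 33.6 FPKM in circulating ex-TRM replicate 2 and 46.1 and 54.6 FPKM in circulating ex-Tcirc. The highest of these values came from circulating ex-Tcirc replicate 2, which listed the other 8 genes at 0. Stat5b was the only one of the 9 whose tissue and circulating libraries did not overlap, as 6.11% of the genes tested did in this direction. Its log2 difference was -1.02 ± 0.35 (SE; limma unadjusted p = 0.0421, adjusted p = 0.14), so it did not pass. At an unadjusted p under 0.05 it was 1 of 2 members, with Socs2, beside 31% of all genes.

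Cish and Socs1 pointed the other way in the ex-Tcirc cells. Cish was at 76.5 and 73.9 FPKM in tissue ex-TRM and at 41.6 and 73.9 FPKM in tissue ex-Tcirc, against 42.6 FPKM in circulating ex-TRM replicate 2 and 14.5 and 0 FPKM in circulating ex-Tcirc. Circulating ex-TRM replicate 2 and tissue ex-Tcirc replicate 1 were alike, and so the groups overlapped narrowly. Socs1 was at 16.8 to 24.3 FPKM in tissue, against 21.7 FPKM in circulating ex-TRM replicate 2 and 6.89 and 0 FPKM in circulating ex-Tcirc. Only the ex-Tcirc libraries were below tissue for Socs1.

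Socs3 was highest in circulation where it was detected. It was at 8.24 to 14.7 FPKM in tissue, against 23 FPKM in circulating ex-TRM replicate 2, 52 FPKM in circulating ex-Tcirc replicate 1 and 0 in replicate 2. Both detected circulating values exceeded all 4 tissue values, but with the 0 of replicate 2 counted the groups overlapped. How many of all genes had this pattern among detected values was not counted. In circulating ex-Tcirc replicate 1, where Socs3 was highest, the 6 myeloid markers summed to 669 FPKM (3 of 6 above 0) and 4 lung epithelial markers to 495 FPKM (2 of 4 above 0). In replicate 2, where Socs3 was listed at 0, these sums were 300 and 0 FPKM. In circulating ex-TRM replicate 2 they were 61 and 23 FPKM, within the tissue ranges of 38 to 139 and 2.77 to 77 FPKM, while Socs3 was above its tissue range. B cell markers summed to 255 FPKM in circulating ex-Tcirc replicate 1, 0 in replicate 2 and 35.7 FPKM in circulating ex-TRM replicate 2. In tissue this sum was 19.9 to 392 FPKM. The part of these markers in the Socs3 levels was not tested.

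The promoters of Cish and Socs3 are shown because these were the genes of the 9 with a TTCNNNGAA match in the windows examined. The windows, from RefSeq on GRCm38.p6, reach from 250 bases before to 50 after an annotated start. That of Cish is chr9:107296409-107296708 on the plus strand and that of Socs3 chr11:117969317-117969616 on the minus strand. The Socs3 window, its match included, lies inside the listed gene (117966079 to 117970336). Its annotated start is therefore not the outer end of that gene. Capitals mark the matches.
Cish: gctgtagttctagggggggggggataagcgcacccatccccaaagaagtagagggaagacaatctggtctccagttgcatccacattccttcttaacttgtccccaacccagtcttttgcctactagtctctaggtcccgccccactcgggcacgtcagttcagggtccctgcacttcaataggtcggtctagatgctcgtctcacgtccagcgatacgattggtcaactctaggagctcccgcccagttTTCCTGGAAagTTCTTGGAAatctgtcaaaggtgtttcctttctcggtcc
Socs3: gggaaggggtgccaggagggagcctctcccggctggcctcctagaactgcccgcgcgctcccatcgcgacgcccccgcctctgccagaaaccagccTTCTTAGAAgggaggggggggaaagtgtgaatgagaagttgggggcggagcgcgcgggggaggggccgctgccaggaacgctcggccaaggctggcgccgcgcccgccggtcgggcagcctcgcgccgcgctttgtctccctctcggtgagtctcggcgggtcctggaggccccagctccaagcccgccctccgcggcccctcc
The motif TTCNNNGAA is its own reverse complement, so both strands are covered by 1 search. Cish held 2 matches, TTCCTGGAA beginning at the start base itself and TTCTTGGAA beginning 11 bases after it, and Socs3 held TTCTTAGAA beginning at position -154, where the start base is 0. Windows were found for 8 of the 9 genes, 11 windows in all. Socs2 had no window, so its promoter was not searched. Of the 11 windows, 2 held the motif, as did 8.3% of 32851 mouse windows of the same length. The form with 4 bases between TTC and GAA, also its own reverse complement, was in none of the 11 and in 6.95% of all. A match of letters is not a measured binding site.

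Socs2 gave the only call among the 9. It was at 89.2 and 112 FPKM in tissue ex-TRM and at 40.1 and 75 FPKM in tissue ex-Tcirc, against 99.2 FPKM in circulating ex-TRM replicate 2 and 0 in both circulating ex-Tcirc libraries. The circulating ex-TRM library lay between the tissue ex-TRM libraries. In the range of 50 to 100 FPKM in tissue, 8.55% of 538 genes, Socs2 among them, had a 0 in both libraries of circulating ex-Tcirc. Averaged over origins, limma called Socs2 higher in tissue (log2 difference 2.91 ± 0.33, SE; adjusted p = 0.00652), in a fit that called 24.8% of all genes, 23.6% higher and 1.23% lower. Within ex-Tcirc cells the call held as well (5.80 ± 0.42, SE; limma adjusted p = 0.00121; 29% of genes called, 27.4% higher and 1.58% lower). With a group at 0, these log2 values depend on the pseudocount and are no folds, and 2 zeros add no spread to the SE while still being counted as replicates. Without tissue ex-TRM replicate 1 or 2 the averaged difference had a limma adjusted p of 0.0578 and 0.0573, and 0 genes of the whole table were called in either case.

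The remaining Stat factors gave no separation by location. Stat3 was at 31.7 to 74.8 FPKM in tissue, against 60.8 FPKM in circulating ex-TRM replicate 2 and 66.7 and 0 FPKM in circulating ex-Tcirc. Stat6 was at 31.7 to 51 FPKM in tissue, against 54.2 FPKM in circulating ex-TRM replicate 2 and 31.2 and 0 FPKM in circulating ex-Tcirc. For Stat4 the tissue range was 18.9 to 29.4 FPKM, against 39.3 FPKM in circulating ex-TRM replicate 2 and 25.2 and 0 FPKM in circulating ex-Tcirc. Where they were detected in circulation, Stat3 lay inside its tissue range, while Stat6 and Stat4 exceeded theirs in circulating ex-TRM replicate 2 and lay just below and inside it in circulating ex-Tcirc replicate 1. Stat5a was at 11.1 to 15 FPKM in tissue, against 18.2 FPKM in circulating ex-TRM replicate 2 and 21.7 and 0 FPKM in circulating ex-Tcirc. Its detected circulating values were both above tissue, but with the 0 of circulating ex-Tcirc replicate 2 counted the groups overlapped, unlike those of Stat5b. The share of all genes with this pattern among detected values was not counted. The limma adjusted p of these 4 genes was 0.69 to 0.84.

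**Figure D4:**
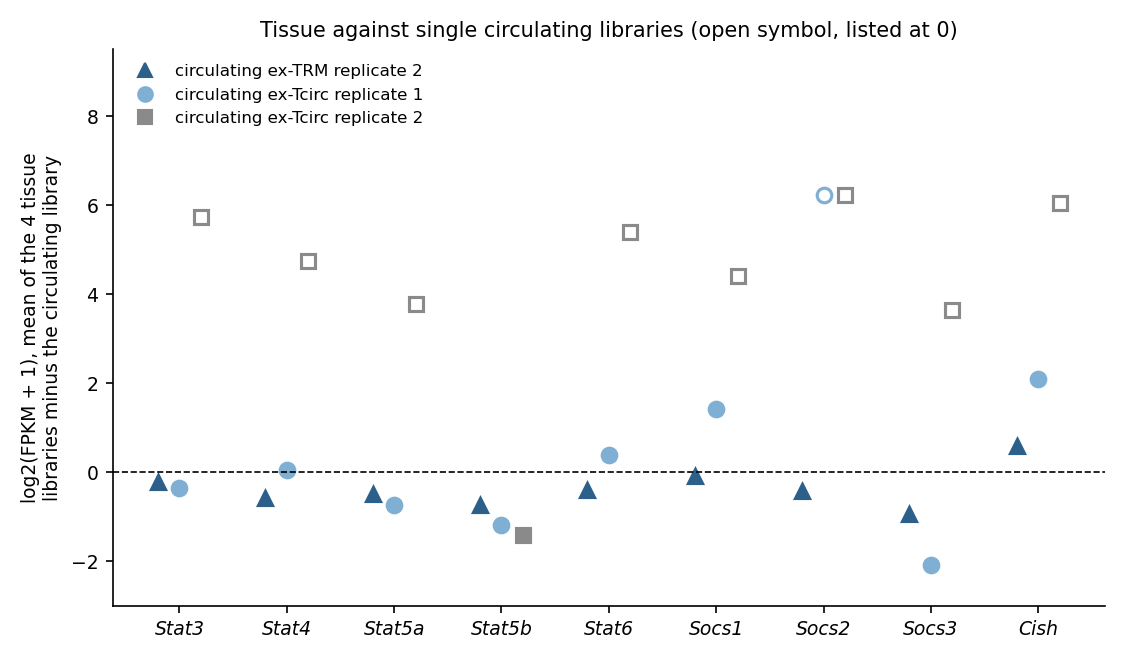
Mean log2(FPKM + 1) of the 4 tissue libraries minus the value of each single circulating library (vertical axis) for the 9 genes (horizontal axis), with open symbols for values listed at 0. Stat5b lies below 0 for all 3 circulating libraries, Socs3 and Stat5a for the 2 in which they were detected, and Cish lies above 0 for all 3.

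Since circulating ex-Tcirc replicate 2 listed 8 of the 9 genes at 0, the averaged comparison was also read without it, with 1 library in each circulating group that is assumed to vary like the tissue libraries. In that fit 5 of the 9 genes passed, where 46.1% of 9345 genes did, so the share is close to that of all genes. Higher in tissue were Socs2, Cish (log2 difference 1.34, limma adjusted p = 0.0217) and Socs1 (0.66, limma adjusted p = 0.0417), and lower in tissue were Socs3 (-1.52, limma adjusted p = 0.0123) and Stat5a (-0.62, limma adjusted p = 0.0497). Stat5b had a difference of -0.96 and did not pass (limma adjusted p = 0.077). Over all 7 libraries Cish, Socs1, Socs3 and Stat5a were at adjusted p = 0.29, 0.40, 0.98 and 0.84 in limma.

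Within ex-Tcirc cells, 4 of the 9 genes (Stat6, Socs1, Socs2 and Cish) were higher in both tissue libraries than in both circulating libraries, beside 42.2% of all genes, and Stat5b alone was lower, beside 10.6%. For Stat5b the difference was -1.28 ± 0.45 on the log2 scale (limma adjusted p = 0.125), for Cish 3.84 ± 1.42 (limma adjusted p = 0.143) and for Socs1 2.80 ± 1.06 (limma adjusted p = 0.152; SE throughout). Stat5b and Socs2 were the 2 members at an unadjusted p under 0.05, beside 35.6% of all genes. Stat6 owed its place to a narrow gap between 31.7 FPKM in tissue ex-Tcirc replicate 1 and 31.2 FPKM in circulating ex-Tcirc replicate 1. Within ex-TRM cells, where circulation is a single library, 2 genes (Stat3 and Cish) were higher in both tissue libraries than in it, beside 38.6% of all genes, and 5 (Stat4, Stat5a, Stat5b, Stat6 and Socs3) were lower, beside 47.2%. Limma called 0% of genes there, with 3.94% at an unadjusted p under 0.05. The largest differences of the 9 there were those of Socs3 (-1.09 ± 2.46, SE), Cish (0.81 ± 1.74) and Stat5b (-0.76 ± 0.55), each with a limma adjusted p of 1. For Socs3 and Cish these errors again include the zeros of circulating ex-Tcirc replicate 2.

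The difference of the location effects, ex-TRM minus ex-Tcirc, was tested as an interaction. Socs2 passed (log2 -5.79 ± 0.66, SE; limma adjusted p = 0.00845), as 22.1% of all genes did, 0.187% upward and 21.9% downward. The other 8 genes did not, with limma adjusted p of 0.50 to 0.81, and Socs2 was also the 1 member at an unadjusted p under 0.05, beside 26.7% of all genes. The Socs2 value rests on a single circulating ex-TRM library and on 2 zeros in circulating ex-Tcirc, and it ran from -9.09 with a pseudocount of 0.1 to -2.47 with all 8 libraries. In limma it lost the call with a minimum mean of 20 FPKM (adjusted p = 0.0509), with the replicate number as a block (adjusted p = 0.0513), with all 8 libraries (adjusted p = 0.99971) and without tissue ex-TRM replicate 1 (adjusted p = 0.0738) or 2 (adjusted p = 0.0724).

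Other genes of the pathway came from 7 lists of other Stat factors, Jak kinases, other Socs genes, Pias inhibitors, phosphatases, cytokine receptor chains and textbook Stat targets, 54 genes of which 39 were tested. Between the tissue groups none of the 39 passed. Averaged over origins, 11 of the 39 (28.2%) passed as higher in tissue, beside 23.6% of all genes, and none as lower, and 10 of the 11 had a 0 in each circulating ex-Tcirc library. The median log2 difference of the 39 was 0.78, beside 0.73 for all genes. Among them was Stat2, which transmits type I interferon signals, at 11.5 and 9.51 FPKM in tissue ex-TRM and 11.6 and 9.91 FPKM in tissue ex-Tcirc, against 7.76 FPKM in circulating ex-TRM replicate 2 and 0 in circulating ex-Tcirc. The Jak kinase Tyk2 was at 14.9 to 21.5 FPKM in tissue, against 14.7 FPKM in circulating ex-TRM replicate 2 and 0 in circulating ex-Tcirc. In the circulating ex-TRM library both lay below their tissue ranges, Tyk2 narrowly.

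Most of the others that passed had the same zeros. Ptpn6, a phosphatase that acts on Jak kinases and receptors, was at 22.4 to 66 FPKM in tissue, against 55.6 FPKM in circulating ex-TRM replicate 2 and 0 in circulating ex-Tcirc. Socs5 was at 12 to 16.4 FPKM in tissue, against 9.42 FPKM in circulating ex-TRM replicate 2 and 0 in circulating ex-Tcirc, and was the only one of 4 other Socs genes with enough signal to be tested. Pias3 and Pias4, inhibitors of Stat binding, passed among 3 Pias genes tested. Il9r, Il27ra and Il10rb led the 5 of 13 receptor chains that passed, with log2 differences of 2.51, 2.07 and 2.03. None of 11 textbook targets tested passed, and Pim1, a kinase induced by Stat5, was at 98.4 to 171 FPKM in tissue, against 208 FPKM in circulating ex-TRM replicate 2 and 119 and 112 FPKM in circulating ex-Tcirc. Jak1, the kinase shared by most of these receptors, was at 74.7 to 113 FPKM in tissue, against 107 FPKM in circulating ex-TRM replicate 2 and 111 and 124 FPKM in circulating ex-Tcirc. Pim1 and Jak1 thus overlapped between tissue and circulation.

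The 3 interleukin 2 receptor chains were singled out after their values were seen. Il2ra, the alpha chain, was at 89.3 and 69.3 FPKM in tissue ex-TRM and 80.3 and 79.1 FPKM in tissue ex-Tcirc, against 50.5 FPKM in circulating ex-TRM replicate 2 and 15.6 and 15.4 FPKM in circulating ex-Tcirc. It was the 1 gene of the 11 above 0 in both circulating ex-Tcirc libraries (log2 difference 1.46 ± 0.25, SE; limma adjusted p = 0.0176). Il2rb, the signalling beta chain shared with interleukin 15, was at 38.3 and 48.7 FPKM in tissue ex-TRM and 19.3 and 35 FPKM in tissue ex-Tcirc, against 100.2 FPKM in circulating ex-TRM replicate 2 and 75.9 and 106 FPKM in circulating ex-Tcirc (-1.47 ± 0.36, SE; limma adjusted p = 0.0537). Il2ra was higher in tissue without overlap, as 13.1% of all genes were, and Il2rb was lower without overlap, as 6.11% were, and did not pass. Il2rg, the gamma chain shared by several cytokine receptors, was at 92.9 to 110 FPKM in tissue, against 149 FPKM in circulating ex-TRM replicate 2 and 66 and 0 FPKM in circulating ex-Tcirc. It overlapped between tissue and circulation and did not pass (limma adjusted p = 0.67).

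The gene most like each of the 6 members with a mean of at least 20 FPKM was sought among the 2656 genes at that level. Likeness was the root mean square difference between log2(FPKM + 1) profiles over the 7 libraries, each centred on its own mean. The nearest gene was Batf for Stat4 (0.096), Morf4l1 for Stat6 (0.105), Dnajc7 for Stat3 (0.153), the pseudogene Rpl36a-ps3 for Stat5b (0.184), Znrf1 for Cish (0.187) and Cd40lg for Socs2 (0.25). Batf, an AP-1 transcription factor, was at 27.2 and 25.4 FPKM in tissue ex-TRM and 17 and 27.7 FPKM in tissue ex-Tcirc, against 40.7 FPKM in circulating ex-TRM replicate 2 and 27.5 and 0 FPKM in circulating ex-Tcirc. All profiles share the same libraries, and each of the 6 except Stat5b had a 0 in replicate 2 of circulating ex-Tcirc. Among these 6 members, Stat4 and Stat6 were nearest to each other (0.266), and Stat5b was at least 2.13 from each of the other 5. The 3 members below that mean were not compared.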

How the data were processed

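RNA-seq values of 8 samples were used. The 14 samples with ATAC-seq are not analysed here. The authors deposited FPKM per gene name, 1 file per library, per the file headers. Per the submitters' processing notes, the tools were StringTie 3.0.1, HISAT2 2.2.1, HOMER 4.11, Trim Galore 0.6.7, MACS2 2.2.7.1 and SAMtools 1.15, with the build mm10. Which tool served which step is not stated there, and the annotation used is not given in the sources used here. Total read counts are unknown, and values of a repeated gene name were summed.

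Group means of log2(FPKM + 1) were fitted with limma 3.58.1 (R 4.3.3) to 7 libraries with a trend on mean level, without circulating ex-TRM replicate 1. Log2 differences on this scale understate changes of low genes. The 9096 genes with a mean of at least 5 FPKM were tested, with Benjamini-Hochberg adjustment over all of them and a threshold of 0.05. The fit was also run on simulated data with noise drawn independently for each gene. Those data lack zeros shared across a library, so the run does not address the zeros of circulating ex-Tcirc. The members, gene lists and tests were chosen with earlier results of these data known. All 9 members were named. Of the pathway lists, genes that passed were named, at most 3 per list with the largest differences, as was the gene with the profile nearest to each member of at least 20 FPKM on average. Jak1, Pim1, Il2ra, Il2rb, Il2rg, Socs4, Socs6 and Socs7 were named after their values were seen. Alternatives were other pseudocounts, filters and scalings, a replicate block, all 8 libraries, only the groups compared and the highest value per gene name. Each library of the fit was also left out in turn, except circulating ex-TRM replicate 2, which stands alone in its group. Figures were drawn with matplotlib 3.10.9.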

Additional observations from a re-analysis of the deposited data

Results flagged for a closer look

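Socs2 is given here because its location effect differed between origins in the interaction test. Socs2 was at 89.2 and 112 FPKM in tissue ex-TRM, against 99.2 FPKM in circulating ex-TRM replicate 2. In ex-Tcirc cells it was at 40.1 and 75 FPKM in tissue, against 0 in both circulating ex-Tcirc libraries. The location effect in ex-TRM minus that in ex-Tcirc was -5.79 on the log2 scale (limma adjusted p = 0.00845, with 22.1% of all genes called). Over the alternatives the adjusted p ranged from 0.00139 to 1.0. The circulating ex-Tcirc libraries listed the fewest gene names above 0 of the 7 used, 12785 and 7042, and the part of this in the difference was not tested.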

How the results depend on the processing

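Of 696 values of single members under alternatives, 622 kept their direction and their side of the threshold, and of 158 counts 115 stayed within 1.5 times. Between the tissue groups no member passed under any setting, and the 0 calls over all genes became 584 without a filter on low values. Tissue against circulation, with 2259 calls, gave 195 with a minimum mean of 20 FPKM, 3618 with at least 1 FPKM in 2 libraries, 4345 with no filter, 1300 after rescaling to a common sum and 0 with all 8 libraries, where 0 members passed. For ex-Tcirc cells, with 2640 calls, these settings gave 242, 5984, 4981, 1611 and 1, with 0 members under the last, and 1382 with only the groups compared. For ex-TRM cells, with 0 calls, there were 35 with a pseudocount of 0.1, 854 with no filter and 397 with only the groups compared. The interaction, with 2013 calls, gave 4 with the minimum of 20 FPKM, 3165 with no filter, 1038 after rescaling and 0 with all 8 libraries. With the replicate number as a block it gave 0, and its 1 member call, Socs2, became 0 under the minimum of 20, the block and all 8 libraries. The block changed no other call of a member. Correlations of the replicate deviations between groups were -0.125, 0.0047 and -0.108. Each rests on only 2 libraries per group, so they cannot decide whether replicate numbers pair the samples. A crossed pairing of the 4 tissue libraries, added after the data were seen, gave 0 calls and 0 members. The cause of these changes was not tested.

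Leaving out single libraries gave 0 to 6677 genes and 0 to 9 members for tissue against circulation, 2047 to 7394 genes and 1 to 9 members within ex-Tcirc, and 0 to 6359 genes and 0 to 8 members for the interaction. The highest numbers came without circulating ex-Tcirc replicate 1, where the zeros of replicate 2 stand alone.

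Direction changed as follows. Between the tissue groups, Stat5b became 0.080 after rescaling, and without single libraries Stat4 ranged from -0.042 to 0.57, Stat5a from -0.017 to 0.30, Stat5b from -0.54 to 0.45 and Socs3 from -0.58 to 0.0033. For tissue against circulation, Socs3 became 0.67 with a pseudocount of 0.1, 0.066 with median-of-ratios factors and 1.06 with all 8 libraries, and Stat5b 0.26 with all 8. Without single libraries Stat3 ranged from -0.29 to 2.755, Stat4 from -0.27 to 2.09, Stat5a from -0.62 to 1.63, Stat6 from -0.0024 to 2.50 and Socs3 from -1.52 to 1.35. Within ex-Tcirc these ranges were -0.79 to 5.29 for Stat3, -0.089 to 4.62 for Stat4, -0.81 to 3.69 for Stat5a and -1.95 to 3.78 for Socs3. Within ex-TRM they were -0.12 to 0.16 for Socs1 and -0.15 to 0.18 for Socs2. There, all 8 libraries gave 2.22 for Stat4, 1.71 for Stat5a, 1.80 for Stat5b, 2.75 for Stat6 and 1.20 for Socs3, median-of-ratios factors gave 0.15 for Stat6, and the block gave -0.74 for Stat3 and -0.39 for Socs1. For the interaction the ranges were -5.08 to 1.01 for Stat3, -4.12 to 0.38 for Stat5a and -4.87 to 0.86 for Socs3, and all 8 libraries gave 0.94, 0.26 and 0.29 for these and 0.10 for Stat6. The median log2 difference over all genes for tissue against circulation was 0.73, and 0.90 and 0.41 with median-of-ratios factors and after rescaling. For Stat5b the difference was -1.02, and -0.83 and -1.21 under these scalings. With no counts deposited, the depth of each library is unknown. A gene listed at 0 in circulating ex-Tcirc was not detected there, which does not show absence of expression.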

Other observations

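The remaining Socs genes were low. Socs4 was at 5.98 to 6.95 FPKM in tissue, against 5.24 FPKM in circulating ex-TRM replicate 2 and 0 in circulating ex-Tcirc, and Socs7 at 4.18 to 4.51 FPKM in tissue, against 5.32 FPKM and 0. Socs6 was at 2.4 to 5.04 FPKM in tissue, against 4.09 FPKM in circulating ex-TRM replicate 2 and 4.14 and 7.14 FPKM in circulating ex-Tcirc.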
